A study of Mus musculus with 3 samples.

Results

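The genes described here encode the selectin ligand PSGL-1 (Selplg) and 8 chains of the integrins that leukocytes use to hold on to vessel walls: Itgal, Itgam, Itgax, Itgad and Itgb2 of the beta 2 family, and Itga4, Itgb1 and Itgb7. They were chosen by name, and all 9 were found among the 19059 genes of the matrices, each with 1 entry. Leukocytes were collected from the peripheral blood of male, naive, untreated mice aged 8, 9 and 10 weeks, with 1 library at each age, which leaves age confounded with library, and the 2 cannot be told apart. The labels give no strain and name each library by a lane, and nothing states that they came from separate animals, so the p-values measure the spread between these libraries. All cells shared erythrocyte lysis, sorting after staining with DAPI and Draq5, and fixation, and transcripts were counted as unique molecular identifiers (UMIs) of gene-specific probes.

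PSGL-1 is a mucin-like protein that, once it carries the right sugars, binds selectins and lets a leukocyte roll along the endothelium. Integrins are pairs of 1 alpha and 1 beta chain that take over when the rolling cell stops and crawls. Itgb2 encodes the beta chain shared by LFA-1 (with Itgal), Mac-1 (with Itgam), CD11c/CD18 (with Itgax) and CD11d/CD18 (with Itgad), which bind ICAMs, complement fragments and fibrinogen. Itga4 encodes the alpha chain that forms VLA-4 with Itgb1, a receptor for VCAM-1, and LPAM-1 with Itgb7, a receptor for the gut addressin MAdCAM-1. An alpha chain needs a beta chain to reach the surface, so transcripts of both chains are set side by side below.

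Cells were assigned to classes from raw UMIs of marker genes, none of which is a member, and class names stand for cells called in that way. Of 21758 cells kept, 9696 were B cells, 2662 neutrophils, 2447 CD4 T cells, 727 NK cells, 627 non-classical monocytes, 563 classical monocytes and 366 platelet-type cells. CD8 T cells with UMIs of at least 2 of 5 effector genes (Ccl5, Cxcr3, Eomes, Nkg7 and Il2rb) numbered 2074, and CD8 T cells free of these genes other than Il2rb numbered 261. The first of these CD8 classes was not a clean memory class: Lef1, a gene of naive T cells, had a UMI in 95.3% of its cells and Ccl5 in 47.3%. Libraries held between 19591648 and 45718031 UMIs, and 232 of 23638 barcodes occurred in more than 1 library. Summed markers of each class lay between 7224 and 61887 CPM within it, where CPM is the count of a gene scaled to the total UMIs of the class and library. Haemoglobin differed between libraries in all classes, in B cells from 1249 to 28892 CPM, with the 9-week library highest, and its part in the results was not tested. Median depth per cell ranged over libraries from 8110 to 9339.5 UMIs in classical monocytes, from 2658.5 to 2809.5 in neutrophils and from 1060 to 1451.5 in platelet-type cells.

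Itgal, Itgam, Itgax and Itgad lie on the plus strand of chromosome 7 in the GENCODE annotation of GRCm38, at chr7:127296260-127335138, chr7:128062640-128118491, chr7:128129547-128150657 and chr7:128154376-128223816. Itgb2 lies on the plus strand at chr10:77530252-77565708, Itga4 at chr2:79255426-79333123 and Itgb1 at chr8:128685654-128733200. Selplg and Itgb7 lie on the minus strand, at chr5:113818536-113832644 and chr15:102215995-102231944. The promoters of Itgam and Itgax are shown because these neighbouring genes parted between the monocyte classes in the results below, where Itgax differed and Itgam was not called. The sequences are RefSeq promoters (GRCm38.p6, plus strand, 250 bases before to 25 after the gene start, at chr7:128062390-128062664 and chr7:128129300-128129574), and capitals mark GAGGAA, the core bound by the myeloid factor PU.1, and TGTGGT, a RUNX core, on either strand.
Itgam: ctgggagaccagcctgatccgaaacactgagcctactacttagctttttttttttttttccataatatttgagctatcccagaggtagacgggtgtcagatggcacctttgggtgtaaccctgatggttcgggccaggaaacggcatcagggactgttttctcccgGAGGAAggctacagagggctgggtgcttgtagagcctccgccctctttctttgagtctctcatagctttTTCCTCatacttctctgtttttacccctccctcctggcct
Itgax: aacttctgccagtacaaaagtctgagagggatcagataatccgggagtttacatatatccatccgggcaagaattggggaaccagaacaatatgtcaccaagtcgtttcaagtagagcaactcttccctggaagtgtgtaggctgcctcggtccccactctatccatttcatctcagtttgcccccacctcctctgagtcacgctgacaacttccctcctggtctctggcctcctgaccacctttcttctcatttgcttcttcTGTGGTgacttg
The Itgam window held GAGGAA on the plus strand 84 bases and on the minus strand 15 bases before the start, and the Itgax window held TGTGGT 13 bases after it. Of 32851 promoter windows of that length, 25.5% held GAGGAA and 15.3% held TGTGGT on either strand, so a match is common. Among the 5 members matched in the promoter table, GAGGAA was found in Itgam, Itgb1 and Itgb7, and TGTGGT in Itga4 and Itgax. The longest run of identical bases shared by the principal transcripts of Itgax and Itgad was 188 bases, against at most 26 for the other pairs of chains compared, so counts of Itgad and Itgax could be split between them and are uncertain to that extent.

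Levels are CPM of a class and library, scaled by TMM (called scaled CPM), and were compared between classes for the same gene only, since probes per gene differ. Neutrophils carried the highest level of Selplg, at 3959, 4169 and 3698 in the 8-, 9- and 10-week libraries. NK cells followed at 1128, 1351 and 1089, and the T cell and monocyte classes lay between 492 and 905. B cells held 80.7 ± 6.20 (SD, n = 3) and platelet-type cells 35.5 ± 11.4 from 8 UMIs. The neutrophil, NK and B cell ranges each stood apart from their neighbours, whereas CD8 T cells without effector genes overlapped classical monocytes, and non-classical monocytes overlapped CD4 T cells. Without TMM, the neutrophil level was 2194 ± 117 and the NK level 1483 ± 129, in the same order.

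**Figure D1:**
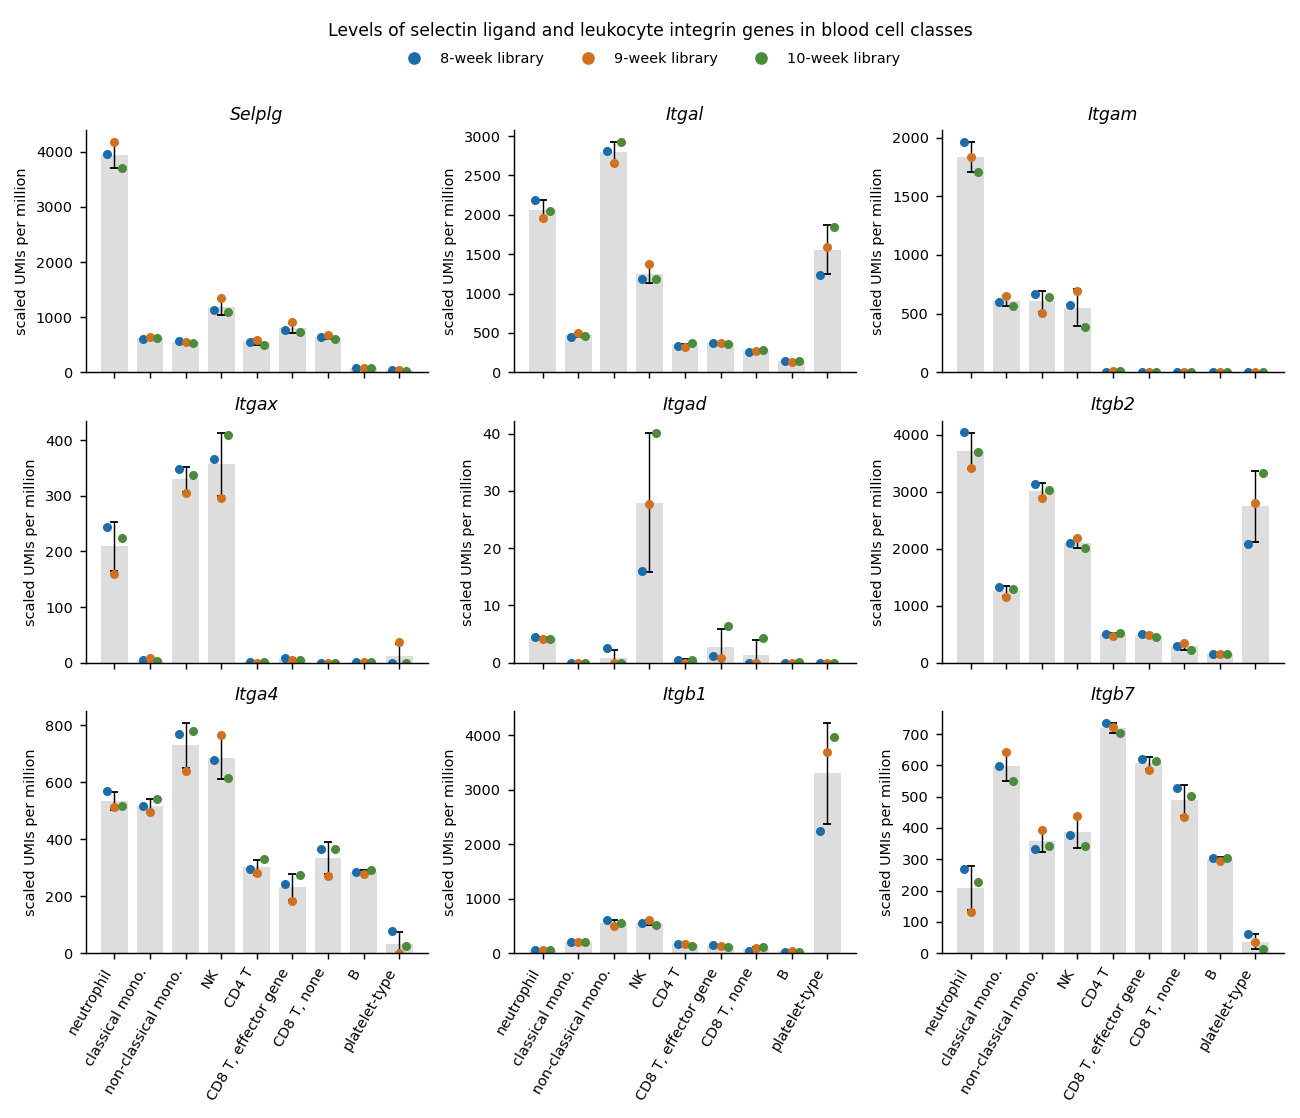
Scaled CPM of the 9 genes (vertical axis, a separate scale per gene) in 9 blood cell classes. Bars are means and error bars SDs over 3 libraries, shown as points coloured by age. Selplg was highest in neutrophils (3942), Itgal in non-classical monocytes (2794), Itgb1 in platelet-type cells (3303) and Itgb7 in CD4 T cells (720).

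Itgal, the alpha chain of LFA-1, was highest in non-classical monocytes, at 2805, 2657 and 2919. Neutrophils held 2188, 1953 and 2055, platelet-type cells 1557 ± 309, NK cells 1247 ± 110, classical monocytes 472 ± 23.0 and B cells 138 ± 3.53. The non-classical range did not overlap that of neutrophils, and the classical range did not overlap that of any neighbour. T cell classes lay between them and B cells, at means of 269 to 369.

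Itgb2, the beta chain that LFA-1 and Mac-1 share, was at 4046, 3413 and 3692 in neutrophils and 3147, 2894 and 3030 in non-classical monocytes. Platelet-type cells held 2746 ± 626, NK cells 2099 ± 85.8, classical monocytes 1259 ± 93.9, CD4 T cells 496 ± 24.9 and B cells 150 ± 5.30. With TMM, non-classical monocytes overlapped platelet-type cells, and neutrophils stood above both. Platelet-type cells moved without it: Itgb2 was 1166 ± 233 and Itgal 664 ± 136, below NK cells for both genes. The place of neutrophils depended on the scaling: without TMM, their Itgb2 level was 2068 ± 143, below the 3162 ± 150 of non-classical monocytes and the 2623 ± 17.3 of NK cells, and their Itgal level of 1149 ± 50.2 fell below the 1557 ± 96.3 of NK cells.

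Itgam, the alpha chain of Mac-1, separated myeloid and NK cells from the rest. Neutrophils held 1962, 1837 and 1708, and non-classical monocytes, classical monocytes and NK cells held means of 604 ± 87.5, 604 ± 42.9 and 550 ± 156 with overlapping ranges. The neutrophil range was above all 3. T and B cell classes had means of 3.04 to 6.74, and platelet-type cells had no UMI. After each cell was thinned to 1000 UMIs, an Itgam UMI was found in 62.8% ± 2.22 of neutrophils, 46.9% ± 7.82 of classical and 45.8% ± 1.47 of non-classical monocytes, 48.2% ± 6.03 of NK cells and 0.400% ± 0.0946 of B cells. The share in B cells was taken as background, at a median depth before thinning of 3077 to 3222 UMIs, and those of CD4 T cells (0.512% ± 0.511) and CD8 T cells with effector genes (0.407% ± 0.233) were of the same size.

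Itgax, which encodes CD11c and is best known from dendritic cells, was at 366, 296 and 409 in NK cells, 348, 305 and 337 in non-classical monocytes and 244, 160 and 225 in neutrophils. NK cells and non-classical monocytes overlapped, and neutrophils lay below both. The remaining 6 classes had means of 0 to 12.3, with 30 UMIs in classical monocytes and none in CD8 T cells without effector genes. In cells thinned to 1000 UMIs, 30.3% ± 7.34 of NK cells, 24.7% ± 3.64 of non-classical monocytes and 10.0% ± 1.22 of neutrophils had an Itgax UMI. None of 2429 thinned CD4 T cells did, while at full depth 6 of 2447 (0.245%) had 1, and the B cell share after thinning was 0.109% ± 0.0361.

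Itgad, whose product CD11d pairs with the same beta chain and is known from tissue macrophages, was scarce. It had 148 UMIs in 95 of the 21758 cells, and NK cells held 63 of them. Their level was 16.0, 27.7 and 40.2, above the 4.51, 4.14 and 4.16 of neutrophils, which rest on 18 UMIs. At full depth 0 of 563 classical monocytes had an Itgad UMI, a count of 0 that still permits up to 0.533% of cells to hold 1.

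Among the 8 fitted classes other than platelet-type cells, Itga4 ran from 729 ± 79.4 in non-classical monocytes and 686 ± 75.9 in NK cells to 233 ± 45.9 in CD8 T cells with effector genes. Neutrophils (533 ± 31.8) and classical monocytes (517 ± 22.1) overlapped, as did CD8 T cells without effector genes, CD4 T cells and B cells (333, 301 and 285). The place of neutrophils depended on the scaling. Without TMM, neutrophils held 296 ± 10.3 and classical monocytes 550 ± 24.2, with no overlap. That neutrophil mean was below the 307 ± 64.2 of CD8 T cells with effector genes. In thinned cells the share with a UMI ran from 26.9%, 23.5% and 24.4% of neutrophils to 52.0% ± 5.70 of non-classical monocytes, and platelet-type cells had 7 UMIs in all.

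Its partners divided the classes. Itgb1, the beta chain of VLA-4 and of the collagen and laminin receptors, was at 2244, 3697 and 3970 in platelet-type cells, 557 ± 44.0 in NK cells, 553 ± 53.5 in non-classical and 207 ± 3.32 in classical monocytes, but at 60.5, 57.9 and 52.7 in neutrophils and 28.6, 31.0 and 28.0 in B cells. NK cells and non-classical monocytes overlapped, and neutrophils and B cells were below the means of the 3 fitted T cell classes. With TMM, neutrophils were not below CD8 T cells without Ccl5 (49.4 ± 6.46, a class described later). Without TMM, the Itgb1 level of neutrophils was 31.7 ± 1.32, below the 66.3 ± 8.99 of that class and the 35.7 ± 1.58 of B cells. Among the 9 fitted classes Itgb7 was highest in CD4 T cells, at 736, 722 and 702. CD8 T cells with effector genes (608 ± 18.9) and classical monocytes (597 ± 46.4) overlapped, B cells held 301 ± 6.31, and neutrophils held 269, 131 and 226, with the 9-week library lowest. Platelet-type cells had 8 Itgb7 UMIs.

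Dendritic cells and basophils were too few for the fit and were called with a looser rule chosen after the data were seen. In plain CPM, 22 dendritic cells held Itgb7 at 1042, 1744 and 1498, above the 968, 946 and 941 of CD4 T cells. Their Itgax levels of 417, 264 and 197 lay on both sides of the 367, 317 and 351 of non-classical monocytes. In 71 basophils Itgb7 was 1247, 547 and 1404, Itgb1 was 610, 312 and 519, and Itga4 had 8 UMIs, while Itgax and Itgad had none. With between 3 and 53 cells per library in these classes, the counting error is large and no test was made.

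Neutrophils were compared with classical monocytes, both short-lived phagocytes that leave the blood through selectins and integrins, in 1 edgeR quasi-likelihood fit of all 9 classes with the library as a block. Of the 9 members 6 were higher in neutrophils and 2 were lower, beside 72.9% of all 10369 genes called (35.5% higher, 37.4% lower), and the median log2 fold of the members was 1.61 against -0.03 over all genes. Selplg rose 6.34-fold (log2 2.67, SE 0.09, adjusted p = 1.7e-38), Itgal 4.39-fold (2.14, SE 0.10, adjusted p = 8.54e-32) and Itgam 3.05-fold (1.61, SE 0.10, adjusted p = 4.26e-21), each higher in 3 of 3 libraries. Itgb2 rose 2.96-fold (1.56, SE 0.10) and Itgax from 30 to 928 UMIs (log2 5.25, SE 0.20). Itgb1 fell 3.54-fold (adjusted p = 4.27e-10) and Itgb7 2.73-fold (adjusted p = 2.29e-15). Itgad had 18 UMIs against 0, and the exact 95% lower limit of its ratio was 5.64 with TMM and 2.90 with plain totals, for counting error only.

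**Figure D2:**
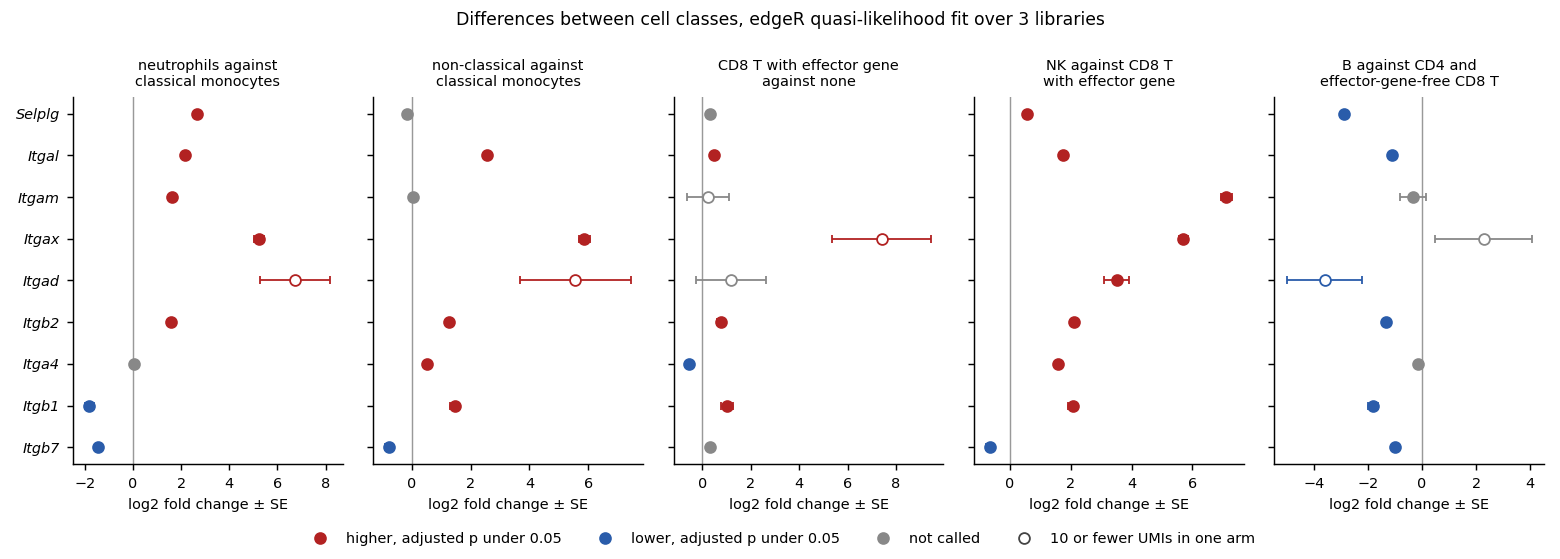
Log2 fold changes (horizontal axis, ± SE) of the 9 genes in 5 comparisons, from the edgeR quasi-likelihood fit over 3 libraries. Red and blue mark genes past an adjusted p of 0.05, and open symbols mark genes with 10 or fewer UMIs in an arm. Itgb1 and Itgb7 were lower in neutrophils than in classical monocytes (log2 -1.82 and -1.45), while Itgb7 alone was lower in NK cells than in CD8 T cells with effector genes (-0.66).

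Itga4 was not called between neutrophils and classical monocytes (log2 0.05, SE 0.10, adjusted p = 0.657). Under plain library totals, where the median of all genes moved from -0.03 to -0.97, its log2 fold was -0.89, and the other 8 calls kept their direction, with Itgb2 at 0.63. The split of called genes moved with the scaling too: under TMM 48.7% of them were higher in neutrophils, a share that was 37.4% under DESeq2 size factors and 20.5% under plain totals.

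Of the 75 other genes of the adhesion pathway, listed with results of these data known, 58 were tested, and 32 were higher and 10 lower in neutrophils than in classical monocytes, a called share of 72.4% beside the 72.9% of all genes. With plain totals 18 were higher and 27 lower, so the balance of directions depended on the scaling, and the counts that follow are those with TMM. Among 17 selectin and selectin-ligand genes, 11 were higher and 3 lower. The sialyltransferase gene St3gal6 was at 415 ± 50.6 in neutrophils against 1.95 ± 1.03 (log2 7.78), Cd24a, which encodes a glycoprotein that P-selectin can bind, at 1908 ± 74.9 against 26.1 ± 16.4 (6.23), and Gcnt1, the branching enzyme of core 2 O-glycans, at 434 ± 16.1 against 44.7 ± 12.6 (3.17). The tyrosylprotein sulphotransferase gene Tpst1 went the other way, at 1.17 ± 0.365 against 51.6 ± 5.49 (-5.61), as did the integrin chains Itga1, with no UMI in neutrophils, and Itgb5 (-1.94). Of 22 integrin activation genes, 15 were higher and 2 lower.

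Non-classical monocytes, which patrol the vessel wall, were compared with classical monocytes, which enter tissue. Of the 9 members 6 were higher and 1 was lower, beside 34.8% of all genes called (15.6% higher, 19.2% lower). Itgal rose 5.93-fold (log2 2.57, SE 0.10, adjusted p = 3.71e-35), Itgb2 2.40-fold (adjusted p = 5.35e-18), Itgb1 2.74-fold (adjusted p = 1.18e-09) and Itga4 1.42-fold (adjusted p = 3.92e-05), each higher in 3 of 3 libraries. Itgb7 fell 1.72-fold (adjusted p = 4.98e-07). Selplg (log2 -0.16, adjusted p = 0.207) and Itgam (0.04, adjusted p = 0.848) were not called, so among the alpha chains of this family Itgal and Itgax differed between monocyte classes while the Itgam values overlapped.

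Itgax had 1103 UMIs in non-classical and 30 in classical monocytes. The call for Itgad rested on 6 UMIs of the 8-week library against 0 (lower limit of the ratio 1.92), and without that library its log2 fold was -0.18 with no call. Leaving out the 8-week library, the largest, lowered the number of genes called from 3604 to 2099.

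In the same comparison 23 of 58 pathway genes were higher and 9 lower, a called share of 55.2% beside the 34.8% of all genes. The integrin chain gene Itga1 (log2 -4.87) and Thbs1 (-2.59), which encodes thrombospondin 1, were among those lower in non-classical monocytes. Spn, which encodes the sialomucin CD43, rose from 208 ± 19.5 to 2278 ± 40.6 (3.46), Rasgrp1, an exchange factor for Ras, from 7.98 ± 1.83 to 75.5 ± 17.5 (3.35) and Pecam1 from 20.9 ± 4.82 to 75.1 ± 19.5 (1.94). Of 22 integrin activation genes 13 were higher and 1 was lower.

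NK cells were compared with CD8 T cells with effector genes, since both lineages carry cytotoxic genes. Of the 9 members 8 were higher in NK cells and Itgb7 was lower, beside 45.5% of all genes called (21.7% higher, 23.7% lower). Itgam was at 569, 695 and 385 against 4.14, 5.75 and 1.96 (log2 7.11, SE 0.18, adjusted p = 3.11e-38), and Itgax rose 52.1-fold. Itgb2 rose 4.35-fold, Itgb1 4.17-fold, Itgal 3.38-fold, Itga4 2.98-fold and Selplg 1.49-fold, with adjusted p between 4.94e-29 for Itgb2 and 1.65e-07 for Selplg. Itgb7 fell 1.58-fold (adjusted p = 5.1e-06). All 9 differences had the same sign in 3 of 3 libraries. In the NK class the neutrophil list was at 8.73 to 26.2 CPM with Ly6g at 0, 838 of 850 UMIs of the classical monocyte list were Ccr2 with Vcan at 0, and 1421 of 1808 UMIs of the T cell list were Trbc1. The class rule limited the UMIs of other lists in each cell, so these low levels were set in part by selection, and their part in the result was not tested. Against the CD8 T cells with Ccl5 described later, the log2 fold was 1.33 for Itgb1 (2.06 here), 4.45 for Itgax (5.70 here), 2.66 for Itgad (3.50 here) and -0.35 for Itgb7 (-0.66 here), each with the same sign and past the threshold.

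Within NK cells, 86 cells with a Cd27 UMI and no Klrg1 UMI, a pattern of less mature NK cells, were set beside 370 cells with the reverse pattern. In plain CPM, Itgam was 562, 450 and 227 in the first group and 818, 922 and 698 in the second, and Itgb2 was 1887 ± 88.4 and 2981 ± 151, with no overlap for either gene. Itgax was 683, 583 and 432 against 351, 281 and 442, with overlapping ranges. This division used UMIs of single genes, in libraries with as few as 10 cells, and was not tested.

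Among the 58 pathway genes tested, 23 were higher and 13 lower in NK cells, a called share of 62.1% beside the 45.5% of all genes. Itga2, which encodes the chain recognised by the NK marker antibody DX5, was at 281 ± 40.5 against 5.87 ± 1.82 (log2 5.76), with the kinase gene Syk (5.46) and Gcnt1 (4.56) next. Itgae, the alpha chain that binds E-cadherin with Itgb7, had no UMI in NK cells and 1063 in the CD8 class, at 79.6 ± 12.1 scaled CPM. Pecam1 (-1.41) and Itga6 (-1.40) were also lower.

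CD8 T cells with effector genes were compared with those without, a division meant to set antigen-experienced cells against naive ones. Of the 9 members 4 were higher and 1 was lower, beside 3.75% of all genes called (2.75% higher, 1% lower). Itgb2 was at 508, 480 and 459 against 286, 355 and 231 (log2 0.76, SE 0.14, adjusted p = 9.36e-05), higher in 3 of 3 libraries and called in each of 12 alternatives. Itga4 fell 1.47-fold (adjusted p = 0.0035). The calls for Itgb1 (log2 1.02, adjusted p = 0.0181), Itgal (0.48, adjusted p = 0.0186) and Itgax (88 UMIs against 0, lower limit of the ratio 2.17) were each lost when the 8-week library was left out (adjusted p = 0.662, 0.337 and 0.549), and so was that of Itga4 (0.178). Without the 9-week library the calls for Itgb1 (0.257) and Itgal (0.0835) were lost, and without the 10-week library that for Itgal (0.0528). Without the replicate block the calls for Itgal (adjusted p = 0.0766) and Itgax (0.0708) were lost, and DESeq2 size factors ended those for Itgal (0.0725) and Itgb1 (0.0773), plain totals that for Itgal (0.0593) and the DESeq2 test that for Itgax (0.121). Median depth was 4120 to 4590 UMIs in the first class and 3117 to 3367 in the second, and the part of depth was not tested.

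Since most of the first class carried naive genes, CD8 T cells were also divided by Ccl5, a choice made after the data were seen: 650 cells had at least 3 Ccl5 UMIs and a UMI of Eomes or Cxcr3, and 1703 had none of these. With this division 7 of the 9 members were called, beside 14.8% of all genes (8.11% higher, 6.7% lower). Itgb1 was at 256, 200 and 181 against 42.0, 53.5 and 52.8 (log2 2.23, SE 0.16, adjusted p = 2.49e-12), Itgal at 459, 462 and 430 against 282, 257 and 305 (0.68), and Itgb2 at 622, 549 and 563 against 378, 356 and 332 (0.71), with no overlap. Itga4 was lower, at 180, 152 and 223 against 317, 244 and 327 (-0.71, adjusted p = 4.69e-07), and so was Itgb7, at 463, 483 and 542 against 681, 625 and 646 (-0.41, adjusted p = 0.0078), whereas its log2 fold was 0.30 and not called with the first division. Itgax was higher (4.76). Itgad was called higher (3.24) on 15 UMIs against 3, at 1.38, 2.13 and 14.4, with most of the level in the 10-week library. Selplg was at 798, 982 and 783 against 696, 802 and 664 and was not called (adjusted p = 0.0547).

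**Figure D3:**
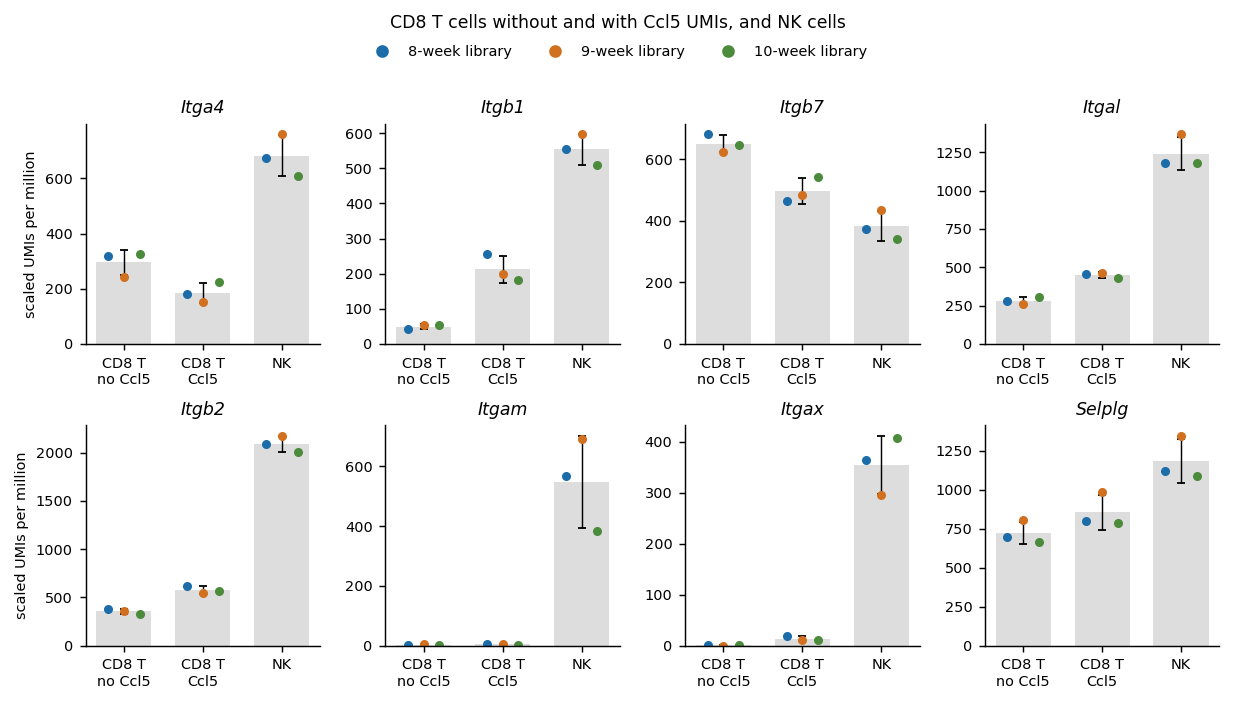
Scaled CPM (vertical axis, a separate scale per gene) of 8 genes in CD8 T cells without Ccl5, CD8 T cells with at least 3 Ccl5 UMIs, and NK cells. Bars are means, error bars SDs and points the 3 libraries. Itgb1 stepped up over the 3 classes (49.4, 212 and 554), Itgb7 stepped down, and Itga4 was lowest in the middle class.

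With the first division 4 of 58 pathway genes were higher and 2 lower, a called share of 10.3% beside the 3.75% of all genes. Cd44, the hyaluronan receptor that marks antigen-experienced T cells, was at 95.9 ± 11.5 against 14.3 ± 1.27 (log2 2.71), and St3gal6 (2.23) and Tpst2 (0.60), a sialyltransferase and a tyrosylprotein sulphotransferase, were higher. Itgae (-0.65) and Itga6 (-0.59) were lower.

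B cells were compared with the mean of CD4 T cells and CD8 T cells without effector genes. No member was higher and 6 were lower, beside 49.3% of all genes called (26% higher, 23.4% lower). Selplg fell 7.33-fold, from 602, 630 and 544 to 74.2, 86.5 and 81.5 (adjusted p = 9.39e-41), Itgb1 3.53-fold (adjusted p = 2.73e-09), Itgb2 2.50-fold (adjusted p = 1.03e-18), Itgal 2.18-fold (adjusted p = 3.36e-17) and Itgb7 1.98-fold (adjusted p = 1.09e-12), each lower in 3 of 3 libraries. Itgad was also called, on 1 UMI against 6 and a pooled ratio of 0.0530 (exact 95% interval 0.00115 to 0.437), and lost that call without the 8-week library (adjusted p = 0.119), without the 10-week library (log2 -1.83) and without the replicate block (adjusted p = 0.0551). Itga4 was at 283, 277 and 293 in B cells against 330, 275 and 347, with overlap and no call (log2 -0.17, adjusted p = 0.115). With plain totals it was called lower (-0.32, adjusted p = 0.00236), as it was with DESeq2 size factors (-0.23), the DESeq2 test (-0.23) and only the classes compared (-0.17). At full depth the 1885 Itgb1 UMIs of CD4 T cells lay in 453 of 2447 cells (18.5%). The 1170 of B cells lay in 912 of 9696 cells. The CD4 T cell mean of Itgb1, and ratios made with it, thus rest on a minority of cells.

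Of 58 pathway genes tested, 19 were higher and 21 lower in B cells, a called share of 69% beside the 49.3% of all genes. With plain totals 17 were higher and 22 lower. The kinase genes Syk (1637 ± 104 against 12.3 ± 8.07, log2 7.39) and Lyn (6.54), which act in B cell receptor and integrin signalling, had the highest folds. The adaptor genes Fyb (-7.18) and Skap1 (-6.66), which couple the T cell receptor to integrins, and Itgae (-7.14) had the lowest.

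Ratios of chain UMIs need no scaling between classes. The ratio of Itgal to Itgam UMIs was 0.757, 0.766 and 0.826 in classical monocytes, 1.12, 1.06 and 1.20 in neutrophils, 2.08, 1.98 and 3.07 in NK cells and 4.19, 5.26 and 4.57 in non-classical monocytes, and none of these ranges overlapped another. In B and CD4 T cells it was 39.3 ± 3.88 and 52.6 ± 12.5, where Itgam was near background. The ratio of Itgal to Itgb2 spanned less, from 0.377 ± 0.0481 in classical monocytes to 0.924 ± 0.0364 in non-classical monocytes and 0.956 ± 0.222 in CD8 T cells without effector genes. Itgam to Itgb2 was alike in neutrophils (0.495 ± 0.0389) and classical monocytes (0.483 ± 0.0709) and lower in NK cells (0.260 ± 0.0642) and non-classical monocytes (0.199 ± 0.0216).

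**Figure D4:**
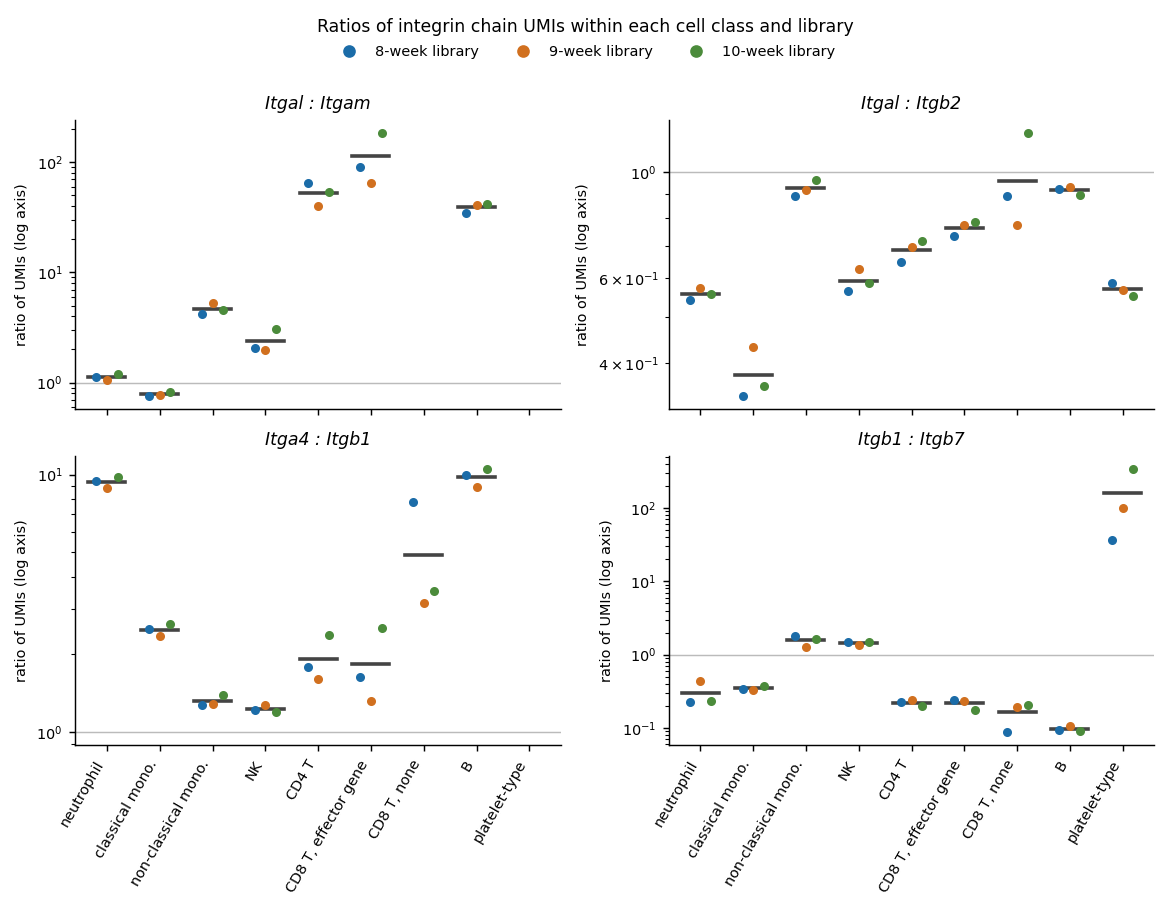
Ratio of UMIs of one integrin chain to another (log axis) by cell class. Points are the 3 libraries and lines their means, and classes with too few UMIs are blank. Itgal to Itgam rose from 0.783 in classical to 4.67 in non-classical monocytes, and Itga4 to Itgb1 was near 10 in neutrophils (9.35) and B cells (9.78).

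The ratio of Itga4 to Itgb1 UMIs was 9.41, 8.83 and 9.82 in neutrophils and 9.92, 8.93 and 10.5 in B cells. It was 2.50 ± 0.142 in classical monocytes, 1.92 ± 0.406 in CD4 T cells, 1.32 ± 0.0676 in non-classical monocytes and 1.23 ± 0.0394 in NK cells. Neutrophils and B cells overlapped and stood above those 4 classes. The ratio of Itgb1 to Itgb7, the alternative partners of Itga4, was highest in platelet-type cells, which had 8 Itgb7 UMIs. Non-classical monocytes (1.81, 1.26 and 1.63) and NK cells (1.45 ± 0.0700) followed, and the ratio was lower in the other fitted classes. It was 0.348 ± 0.0227 in classical monocytes, 0.300 ± 0.123 in neutrophils, 0.221 ± 0.0222 in CD4 T cells and 0.0972 ± 0.0075 in B cells. In CD8 T cells divided by Ccl5 it was 0.553, 0.414 and 0.334 with Ccl5 and 0.0616, 0.0857 and 0.0817 without, and Itga4 to Itgb1 was 0.899 ± 0.288 with Ccl5 and 7.55, 4.56 and 6.20 without. Ratios of UMIs compare probes of different genes, so their distance between classes has a meaning and their absolute size has not.

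Platelet-type cells carried Itgb1 (785 UMIs), Itgb2 (649) and Itgal (367) with almost no UMI of the other members. In plain CPM, Itgb1 was 1387, 1178 and 1557 there and Itgb2 was 1292, 896 and 1309. The platelet chains Itga2b (16402 scaled CPM) and Itgb3 (12241), which together form the fibrinogen receptor, and Itga6 (12075) and Itgb5 (2695) were present as well. In this class neutrophil markers summed to at most 23.5 CPM, NK markers to 19.0 and T cell markers to 47.5, levels that the class rule itself limited. B cell markers summed to 54.8 to 827, against 12775 to 13413 in B cells, and their part in the result was not tested. In addition, 356 of 369 UMIs of the classical monocyte list were F13a1, with Ccr2 and Vcan at 0. The ratio of Itgal to Itgb2 was 0.588, 0.568 and 0.553. Haemoglobin made up 15144 to 262999 CPM of this class, so its scaled levels carry that spread.

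Over the 27 class and library values, Pearson r of log2 levels was 0.96 for Itgal with Itgb2, 0.69 for Itgam with Itgb2, 0.80 for Itgax with Itgal, 0.71 for Itga4 with Itgb7 and -0.49 for Itga4 with Itgb1. These are descriptions over 9 classes whose values within a library share its preparation and sequencing, and the platelet-type class weighs on each. That class was lowest in Itga4 (mean 33.4) and Itgb7 (36.7) and highest in Itgb1 (3303). Among the other classes, non-classical monocytes and NK cells were highest in both Itga4 and Itgb1. No r was computed without platelet-type cells, so the signs for Itga4 do not describe the other classes. Of 9212 genes, the one most like Selplg was Pik3r5 (r = 0.96), like Itgam Tyrobp (0.98), like Itga4 Copb1 (0.97), like Itgb1 Nab1 (0.93), like Itgb7 Idh3b (0.96), like Itgax Bhlhe40 (0.92) and like Itgad Mcam (0.93). Dock5 was the closest gene to both Itgal (0.91) and Itgb2 (0.95). Next in line were Sema4a and Rab27a for Selplg, Zbtb16 and Ttc7b for Itgal, Nfil3 and Apobr for Itgam, Gsap and Lrrfip1 for Itgax, Rasl12 and Clnk for Itgad, and Ppp1r9b and Zbtb16 for Itgb2. For Itga4 they were Man2b2 and Zc3h7a, for Itgb1 Pdcd6ip and Ap1s1, and for Itgb7 Sec11a and Snrpd3. The likenesses of Itgad rest mainly on its 63 UMIs in NK cells, since its mean in each other class was at most 4.27.

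Chains of a pair were also counted in the same cells, each thinned to 1000 UMIs. Among neutrophils with an Itgal UMI, 86.0% ± 1.76 had an Itgb2 UMI, and among those without, 84.8% ± 1.10. The shares were 90.1% ± 1.74 and 88.7% ± 2.33 in NK cells. In CD4 T cells they were 48.1%, 45.2% and 56.5% with Itgal and 45.6%, 40.3% and 44.3% without. Itgam-positive and Itgam-negative neutrophils had Itgb2 in 84.9% ± 2.64 and 86.7% ± 0.691. In platelet-type cells, with 84 Itgal-positive cells, Itgb2 was found in 92.9%, 53.1% and 63.2% of cells with Itgal and 43.8%, 38.6% and 51.2% of cells without, with no overlap. Thinning left out 153 of 366 platelet-type cells, which had fewer than 1000 UMIs, and the part of haemoglobin in this gap was not tested. In CD8 T cells without effector genes, Itgb2 was found in 37.5% ± 3.66 of cells with Itgal and 25.5% ± 5.08 of cells without. Detection of Itgb1 differed by Itga4 in CD4 T cells, at 10.5%, 17.3% and 14.9% of cells with Itga4 and 8.81%, 8.21% and 7.33% of cells without, with no overlap, while in B cells the shares were 2.84% ± 0.358 and 3.01% ± 0.486. Itgb7 was found in 58.7% ± 3.67 of CD4 T cells with Itga4 and 58.3% ± 0.763 of those without.

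**Figure D5:**
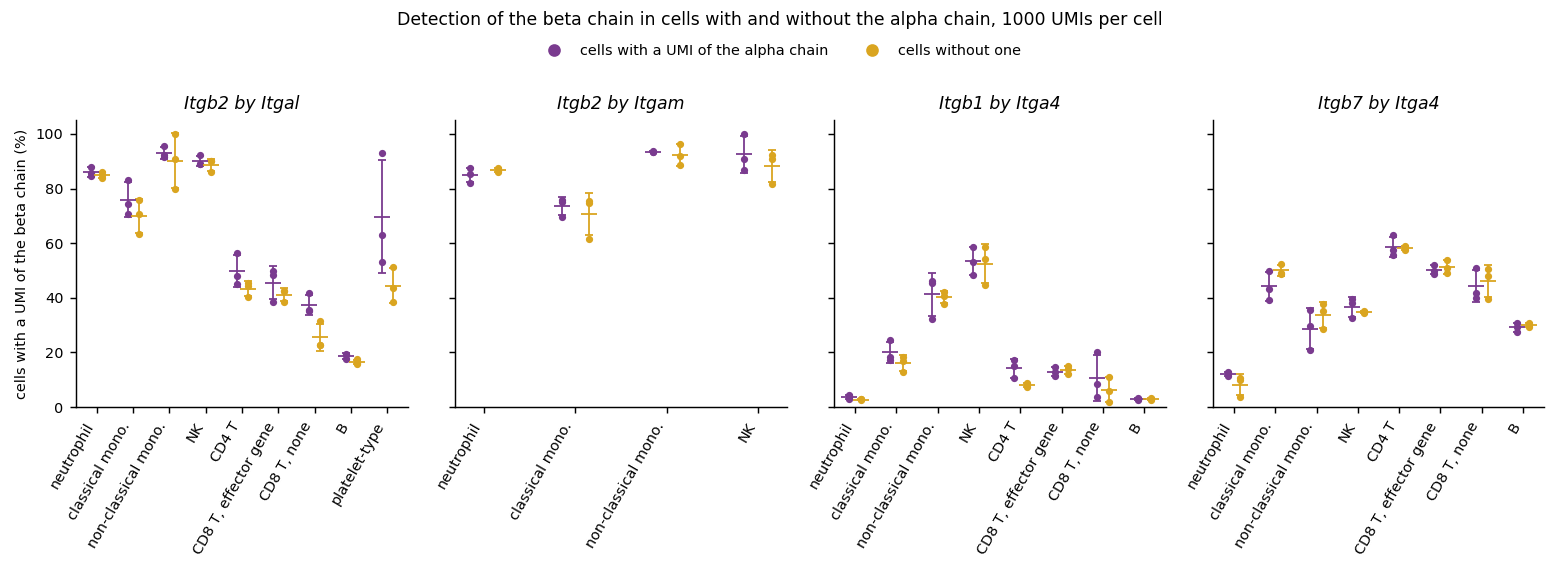
Percent of cells with a UMI of the beta chain (vertical axis) among cells with (purple) and without (yellow) a UMI of the alpha chain, at 1000 UMIs per cell, for 4 pairs of chains. Points are libraries, bars means and error bars SDs over 3 libraries, and classes with fewer than 50 alpha-positive cells are left out. In neutrophils Itgb2 was found in 86.0% of Itgal-positive and 84.8% of Itgal-negative cells.

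At full depth, with 1 UMI enough, Itgb2 was detected in 98.4% ± 0.857 of neutrophils, 98.8% ± 1.62 of NK cells and 42.5% ± 1.68 of B cells, and Itgb1 in 7.57% ± 0.502 of neutrophils, 87.0% ± 2.89 of NK cells and 9.48% ± 0.468 of B cells. A cell with no UMI of a chain may still hold its transcript: for Itga4, the share of classical monocytes with a UMI was 94.8% ± 2.38 at full depth and 43.4% ± 1.04 at 1000 UMIs.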

How the data were processed

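The authors deposited 1 matrix of raw UMI counts per library with its lists of barcodes and features, whose entries are identifiers (unit: other, a deposited label and not a measurement). Cell Ranger 7.1.0 made the matrices, per the file headers, and probe-based counting is named in the labels' protocols. The genome build and probe set (not given in the sources used here) are unknown, so gene positions come from GENCODE by Ensembl identifier, and promoters from RefSeq.

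Barcodes with fewer than 200 genes and doublets called per library by Scrublet in scanpy 1.11.5 were removed (1182 and 930 barcodes). A cell joined a class with at least 3 UMIs from 2 of its marker genes and no other class at more than 1 UMI or 1 in 4 of its own sum, whichever was larger. Monocytes also needed a Csf1r UMI. Classes needed 20 or more cells per library, which left 9. Kept libraries held 10340, 4944 and 6474 cells with medians of 3474, 3273 and 3130 UMIs.

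Counts were summed per class and library and tested with edgeR 4.0.16 (quasi-likelihood, robust, TMM, filterByExpr) over 10369 genes and p-values were adjusted by Benjamini-Hochberg with a threshold of 0.05. The library was a block, since classes of 1 library were prepared together: deviations of classes correlated at a mean of 0.15 within a library and -0.07 between libraries. On simulated counts for the comparison of neutrophils with classical monocytes (10163 genes), 52 of 100 genes changed by log2 1 and 99 of 100 changed by log2 2 were recovered, with 5 false calls. The dispersion of the simulated counts was set at 0.05 and not estimated from these data, so the recovery holds for that setting only. In the simulation all other genes were set equal between these classes, changes were balanced in direction, and no library effect was added. Errors that come from the scaling were therefore not tested. Ratios against 0 UMIs are given by the lower limit of the exact 95% interval of the pooled counts, with totals times TMM factors. Ratios and shares have exact 95% intervals where given, which cover counting error only. Correlations used log2(CPM + 5) and genes at 20 or more in a class.

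Alternatives were DESeq2 1.42.0, DESeq2 size factors, plain totals, no filter, no block, doublets kept, a stricter gate (5 UMIs from 3 genes), only the classes compared, 2000 UMIs in thinning, and each library left out. Members, lists and tests were chosen with earlier results of these data known. Named are all members, for each comparison the 3 highest and 3 lowest pathway genes past the threshold, with the same sign in 3 libraries and a mean of at least 20 CPM in either arm, and the 3 genes most like each member. Some genes that this rule names are not reported here. Any other gene, the split by Ccl5, the NK cell groups and the looser rule for dendritic cells and basophils were chosen after values were seen. The fixed CD8 rule let in cells with naive genes, and plasmacytoid dendritic cells (4) were left out.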

Additional observations from a re-analysis of the deposited data

How the results depend on the processing

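Of 515 recomputed member folds (45 in the report), 483 kept direction and side of the threshold, 16 lost and 5 gained a call, and 11 reversed. A reversed fold was counted only as reversed, whether called or not. Itga4 between neutrophils and classical monocytes, not called, reversed with DESeq2 size factors (-0.28), plain totals (-0.89), no filter (-0.053), the DESeq2 test (-0.28) and only the classes compared (-0.0046), and ranged from -0.060 to 0.10 with a library left out. With a library left out, Itgam ranged from -0.075 to 0.19 and Itgad from -0.18 to 6.05 between monocyte classes. Itgb7 between CD8 classes reversed with the split by Ccl5 (-0.41) and was then called lower. The cause of these changes was not tested.

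With a library left out, genes called ranged from 2099 to 3160 between monocyte classes (3604 with all), from 114 to 251 between CD8 classes (389) and from 2876 to 4382 for NK cells (4713). The lowest count in each was without the 8-week library, and fewer samples enter each of these fits. The split by Ccl5 gave 1536 calls between CD8 classes. Of the calls, 73.3% were higher in CD8 T cells with effector genes with TMM, 55.0% with DESeq2 size factors, 56.9% with plain totals and 48.5% with DESeq2, and 52.6% were higher in B cells with TMM and 39.1% with plain totals. Without the replicate block 7435, 3369, 280, 4459 and 4838 genes were called for neutrophils, non-classical monocytes, CD8 T cells, NK cells and B cells, against 7562, 3604, 389, 4713 and 5115 with it. Apart from the 3 calls named in the report, removing the block changed no member's call.

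Thinning to 2000 UMIs moved 66 of 81 shares of cells by more than 1 SD, since more UMIs are read per cell. Keeping doublets moved 0 and the stricter gate 1 (Itgb1 in neutrophils, 2.68%). Itgad rests on 63 UMIs or fewer in each class.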
